A study of Mus musculus with 12 samples.

Results

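The YTH domain readers of N6-methyladenosine (m6A) are encoded in the mouse by 5 genes, Ythdf1, Ythdf2, Ythdf3, Ythdc1 and Ythdc2, which were taken by symbol from a table of 56691 genes. All 5 were detected in every library and passed the filter on low counts in every comparison. Their mRNA was measured in WT oocytes and in oocytes of Alkbh5-/- (KO) mice, both of C57BL/6 background, at the germinal vesicle (GV) stage, at germinal vesicle breakdown (GVBD) and at metaphase II (MII). There were 2 libraries for each of the 6 groups, 12 in all, each from a small pool of oocytes. The KO animals lacked exon 1 of Alkbh5 in all cells, removed by CRISPR/Cas9. Females of about 3 weeks were primed with gonadotropin, and denuded oocytes were held at the GV stage with milrinone and sampled after 0, 4 and 16 h of culture. An age given elsewhere in the study's supplements is higher. Most KO oocytes were reported not to complete these steps, so KO libraries labelled GVBD or MII may hold oocytes of earlier stages. Stage and genotype then cannot be told apart. At GV too, KO oocytes were reported fewer, smaller in diameter and altered in nuclear configuration, and the study proposes impaired growth. The part of this in differences at GV was not tested. The study calls the libraries of a group biologically independent and mixed oocytes of several mice. It does not say whether the libraries of a group shared mice, so p-values measure only spread between these libraries. The fits draw the spread of each gene in part from all tested genes. A standard error (SE) is therefore not the replicate spread of that gene alone.

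m6A is the most common internal modification of mRNA, written by a METTL3-METTL14 complex and erased by ALKBH5 and FTO. The YTH domain binds the methylated base in an aromatic pocket. YTHDF1, YTHDF2 and YTHDF3 are cytoplasmic paralogs, of which YTHDF2 recruits the CCR4-NOT deadenylase and is required maternally in mouse oocytes, while YTHDC1 acts in the nucleus on splicing, polyadenylation and export, and YTHDC2 is an RNA helicase needed for entry into meiosis.

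Libraries held between 28557742 and 40247810 counts, of which 0.777% to 2.08% fell on ERCC sequences, synthetic RNAs added in a fixed amount. Levels are given as ERCC-scaled counts, that is counts divided by the relative ERCC total of the library. In pools of oocytes such a level cannot tell fewer cells from less RNA per cell. Alkbh5 itself had between 5355 and 10181 counts in WT libraries and between 54 and 143 in KO libraries, and its log2 fold change was -5.41 ± 0.52 (SE) at GV, -6.43 ± 0.70 at GVBD and -5.89 ± 0.99 at MII. All 12 oocyte markers, such as Zp3 and Gdf9, were detected in every library and summed to between 12219 and 25935 CPM (counts set to a common library total). The 15 markers of cumulus and granulosa cells summed to between 40.7 and 87.9, with 9 to 13 of them above 0. The 8 blood markers, 4 of them haemoglobin genes, varied far more, from 10.2 to 5456 CPM, and were high in 1 of the WT GV libraries and in both WT GVBD and both KO GV libraries, with 1 KO MII library in between at 907.

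The 3 Ythdf genes are close paralogs, and whether reads can be told apart between them decides how their counts can be read. The genes lie at chr2:180904377-180920949 (Ythdf1, minus strand), chr4:132184912-132212303 (Ythdf2, minus strand) and chr3:16183212-16217037 (Ythdf3, plus strand) on GRCm38. Their coding sequences, taken from GENCODE M21, were identical at 67.8% of aligned bases between Ythdf1 and Ythdf2, and at 69.4% for Ythdf3 against either. Printed below, in the sense direction, is the coding stretch of 90 bases within 1 exon of each gene with the most positions identical in all 3. Stretches were not ranked by identity between pairs, nor across exon junctions, so reads may be harder to separate elsewhere. Capitals mark the 23 positions at which the 3 sequences are not all the same.
Ythdf1, chr2:180911123-180911212, exon 5: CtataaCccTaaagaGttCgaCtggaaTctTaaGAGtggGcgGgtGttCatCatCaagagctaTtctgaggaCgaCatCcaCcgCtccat
Ythdf2, chr4:132204568-132204657, exon 4: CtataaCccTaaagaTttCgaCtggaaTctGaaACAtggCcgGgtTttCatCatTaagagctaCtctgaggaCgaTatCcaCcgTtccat
Ythdf3, chr3:16204899-16204988, exon 5: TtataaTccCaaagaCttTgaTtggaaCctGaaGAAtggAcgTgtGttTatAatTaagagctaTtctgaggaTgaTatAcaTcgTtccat
Even here the other 67 positions are broken up by differences, and no window of 50 bases of the representative transcript of any Ythdf gene recurred in a transcript of another. For Ythdf2, 349 of 4080 such windows recurred in the processed pseudogenes Gm6823 and Gm8401, which had at most 6 and 32 counts in any library. Since the authors kept uniquely mapped reads, Ythdf2 reads from those windows may be missing from its count.

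Ythdc1, at chr5:86804221-86836659, shares 631 exon bases on the same strand with the lincRNA Gm43055, which had 0 counts in all 12 libraries. Of 2911 windows of 50 bases in the representative Ythdc1 transcript, 586 recurred in that lincRNA. The counting step is not given, so reads from the shared bases may be missing from the Ythdc1 count. Ythdc2, at chr18:44827746-44889724, shared no window with another gene. The 5 letters GGACT, a frequent form of the m6A consensus, were searched on the sense strand of each gene's representative transcript. They occurred 5 times in Ythdf2 (3 of these in the 3′ untranslated region), 3 times in Ythdc2, once each in Ythdf1 and Ythdf3 and 0 times in Ythdc1, whose representative transcript has 2960 bases while its longest has 6313. Per kilobase this is 1.21 for Ythdf2, 0.44 for Ythdf1, 0.416 for Ythdc2 and 0.203 for Ythdf3. Over 21901 protein-coding genes the median was 1.02 and the lower quartile 0.554, and 86.7% of them hold at least 1, so Ythdf2 lay above the median and the other 4 readers under the lower quartile. A match to these letters is a description and not a methylated site. For Ythdf1 too the transcript searched, of 2272 bases with 272 in the 3′ untranslated region, is shorter than its longest, of 3184.

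Ythdf2 was the most abundant reader per kilobase of exon, with a mean of 873 ERCC-scaled counts per kilobase over the 12 libraries. It was followed by Ythdf3 with 362, Ythdf1 with 160, Ythdc1 with 121 and Ythdc2 with 52.7. Ythdf2 ranked first and Ythdc2 last in each of the 6 groups, and the most abundant exceeded the least abundant reader by between 5.80 and 32.5 times in a library. Over all 12 libraries the ranges of all neighbours in this order overlapped, while within WT GV and within KO GV none did. At WT MII, Ythdc1 (124 ± 24.3 ERCC-scaled counts per kilobase, SD, n = 2) and Ythdf1 (112 ± 53.5) changed places and overlapped. The place of Ythdc1 depends on the length used: with the longest transcript in place of all annotated exons it stood above Ythdf1, at 261 against 166. Among 18441 genes ranked per kilobase, Ythdf2 lay above 84.2% in WT GV and 90.1% in KO GV, and Ythdc2 above 45.1% and 39.6%.

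**Figure D1:**
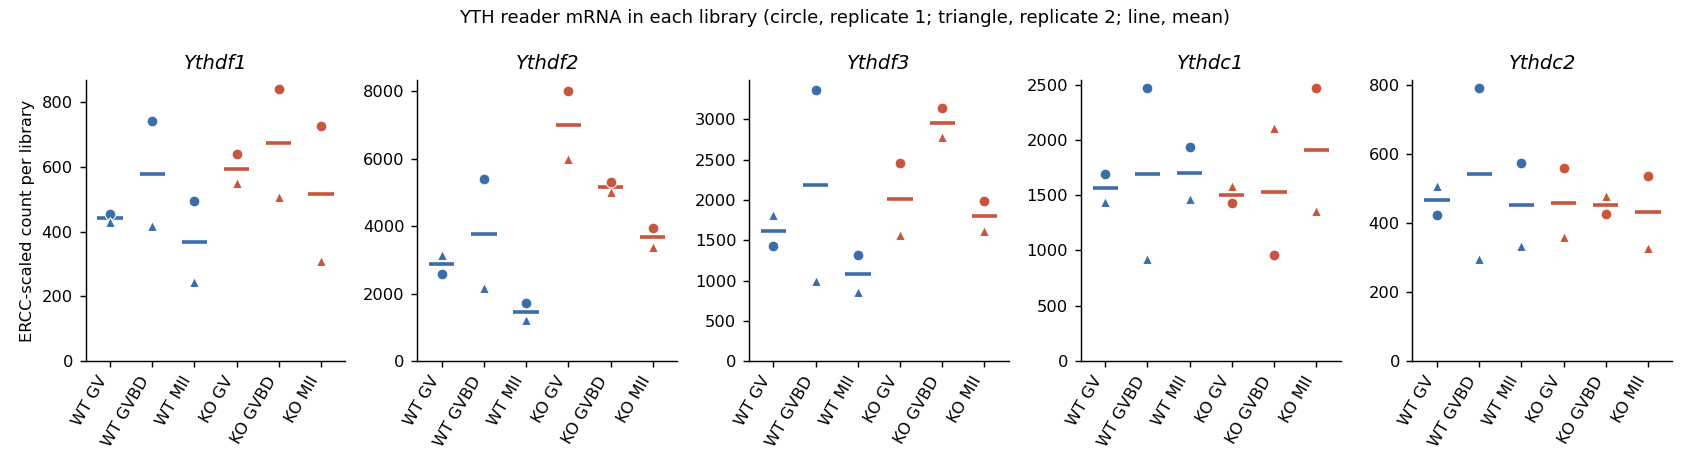
ERCC-scaled counts (linear axis from 0) of the 5 readers in each of the 12 libraries, by group; circles are replicate 1, triangles replicate 2 and lines the group means, with WT in blue and KO in red. For Ythdf2 both KO libraries lie above both WT libraries at GV and at MII, while Ythdc1 and Ythdc2 overlap between genotypes at every stage.

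The comparison of KO with WT asked whether losing the eraser went with other levels of the readers. A gene was called when its p from edgeR's quasi-likelihood test, after Benjamini-Hochberg adjustment across every tested gene, was under 0.05 and its log2 fold change was at least 1 in size. By that rule 0 of the 5 readers were called at GV, where 0.0977% of 19452 genes were called. At GVBD it was again 0 of 5 against 2.54% of all genes, at MII 0 of 5 against 0.803%, and in a fit of the 3 stages together, with stage as a term, 0 of 5 against 1.26%. At an unadjusted p under 0.05 there was 1 of 5 readers at GV (17.9% of all genes), 0 at GVBD (14.9%), 0 at MII (7.32%) and 1 over all stages (18.8%), in both cases Ythdf2, which is close to the share of all genes. DESeq2 called 1 at GV and 1 over all stages, again Ythdf2, where it called 3.42% and 6.16% of all genes, and 0 at GVBD and MII, where it called 4.63% and 1.97%. The median KO-to-WT difference of the tested genes (log2) was itself above 0 on the ERCC scale, at 0.36 at GV, 0.23 at GVBD and 0.30 at MII.

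Ythdf2, which brings bound mRNA to deadenylation, had the largest difference of the 5 at GV and at MII. In GV oocytes its ERCC-scaled counts were 2598 and 3141 in WT and 8009 and 5996 in KO. Both KO libraries were above both WT libraries, as were those of 42.2% of all tested genes on this scale. The difference was 2.44-fold, with a log2 fold change of 1.29 ± 0.22 (SE), an unadjusted p of 0.000971 and an adjusted p of 0.121 (edgeR). It therefore missed the threshold, and across 14 alternative settings the adjusted p ranged from 2.11e-06 to 1, with 5 of them calling Ythdf2 and 1 of those leaving out WT GV replicate 2 (adjusted p = 0.0247, edgeR), where 2.45% of all genes were called. The lowest adjusted p came from DESeq2 with ERCC scaling, the program and scaling the study used. Scaling by TMM, which centres most genes, gave 0.93 ± 0.15 (adjusted p = 0.135, edgeR). On the ERCC scale Alkbh5 itself, at -5.41, had an adjusted p of 0.046 at GV (edgeR). Failing this test therefore does not show that a reader was unchanged. The blood markers summed to 43.7 and 5456 CPM in the 2 WT GV libraries, whose Ythdf2 levels were the 2598 and 3141 above, and to 3041 and 5242 in KO GV. Their part in the difference was not tested.

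At GVBD the WT libraries of Ythdf2 were far apart, at 5414 and 2156 ERCC-scaled counts, and the KO libraries, at 5306 and 5004, lay between them. The log2 fold change was 0.45 ± 0.54. The difference was not detectable against this spread, and without WT GVBD replicate 1 it was 1.26, or -0.071 without replicate 2. The blood markers summed to 3320 and 2967 CPM in WT GVBD and to 11.5 and 23.9 in KO GVBD, and their part was not tested. At MII Ythdf2 had 1713 and 1229 ERCC-scaled counts in WT and 3952 and 3400 in KO, so the KO libraries were again above, as were those of 22.1% of all tested genes. The log2 fold change was 1.32 ± 0.81 (adjusted p = 0.895, edgeR) on the ERCC scale. With TMM scaling it was 1.14 ± 0.34 (adjusted p = 0.171, edgeR), so the wide SE was not that of the Ythdf2 libraries alone. Over all stages the log2 fold change on the ERCC scale was 1.02 ± 0.27, a 2.03-fold difference. Its unadjusted p was 0.00178 and its adjusted p 0.0743 (edgeR). TMM scaling brought that adjusted p to 0.0476 (edgeR) but the log2 fold change to 0.82, under the fold minimum. Over 20 alternatives the adjusted p ranged from 0.00594 to 0.202, with 5 calls. One of these came without WT GVBD replicate 1 (log2 fold change 1.29, adjusted p = 0.0237, edgeR), where 0.581% of all genes were called.

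Ythdf1 and Ythdf3, its paralogs with overlapping targets, had smaller differences. For Ythdf1 the KO-to-WT log2 fold change was 0.43 ± 0.27 at GV, 0.22 ± 0.56 at GVBD, 0.49 ± 0.88 at MII and 0.38 ± 0.30 over all stages, within 0.19 of the median of all genes in each case. Its GV libraries did not overlap between genotypes on the ERCC scale, with 454 and 430 ERCC-scaled counts in WT and 639 and 550 in KO, but did after TMM scaling; on the ERCC scale the same held for 42.2% of all genes. Ythdf3 had a log2 fold change of 0.31 ± 0.28 at GV, 0.44 ± 0.57 at GVBD, 0.73 ± 0.83 at MII and 0.50 ± 0.29 over all stages. At MII its libraries, 1312 and 856 ERCC-scaled counts in WT and 1986 and 1618 in KO, did not overlap, as for 22.1% of all genes. None of these passed the test.

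The nuclear reader Ythdc1 and the helicase Ythdc2 had differences around 0. Ythdc1 had 1687 and 1438 ERCC-scaled counts in WT GV and 1426 and 1581 in KO GV, which overlap, and its log2 fold change was -0.056 ± 0.20. It was -0.14 ± 0.57 at GVBD, 0.17 ± 0.81 at MII and -0.0097 ± 0.29 over all stages. The GVBD libraries of Ythdc1 were the most uneven, at 2465 and 922 in WT and 955 and 2107 in KO. Ythdc2 had a log2 fold change of -0.023 ± 0.34 at GV, -0.26 ± 0.59 at GVBD, -0.068 ± 0.88 at MII and -0.12 ± 0.30 over all stages. On the TMM scale both were negative at each stage, at -0.39 for either gene at GV and down to -0.43 for Ythdc2 at GVBD, and neither passed the test there. On that scale both KO GV libraries lay below both WT GV libraries for Ythdc1 and for Ythdc2, as for 24.4% of all genes.

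**Figure D2:**
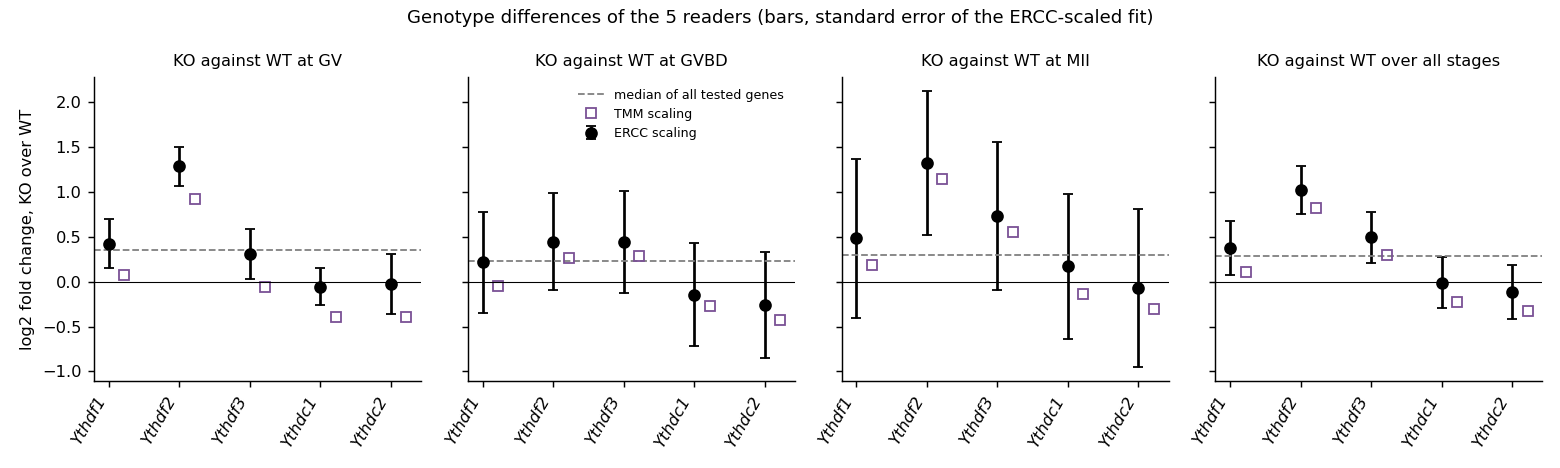
Log2 fold change of KO over WT for the 5 readers at each stage and over all stages; filled points with bars are the ERCC-scaled fit with its standard error, open squares the TMM-scaled value, and dashed lines the ERCC-scaled median of all tested genes. Ythdf2 stands highest at GV (1.29), at MII (1.32) and over all stages (1.02), and Ythdc1 and Ythdc2 stay near or below 0 apart from Ythdc1 at MII (0.17).

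Ratios between readers in the same library do not depend on how libraries are scaled. Of the Ythdf mRNA per kilobase, Ythdf2 made up 58.5% and 59.5% in the 2 WT GV libraries and 72.9% and 74.1% in KO GV. At MII its share was 48.7% and 53.5% in WT and 59.5% and 65.3% in KO. The genotypes did not overlap at either stage, whereas at GVBD the shares of 58.2% and 60.2% in WT and 58.0% and 62.0% in KO did. The difference between stages was not tested. The blood markers of the WT GV pair were at 43.7 and 5456 CPM, and their part in the shares was not tested.

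At GV the share that was lower in KO was mostly that of Ythdf3, at 27.4% and 29.3% in WT and 19.1% and 16.5% in KO. The per-kilobase ratio of Ythdf2 to Ythdf3 was 2.14 and 2.03 in WT GV and 3.82 and 4.50 in KO GV. At MII the WT libraries had 1.53 and 1.68 and the KO libraries 2.33 and 2.46, again without overlap, and at GVBD the genotypes overlapped. Against Ythdc2 the ratio was widest, at 11.91 and 12.01 in WT GV and 27.8 and 32.5 in KO GV. At GVBD that ratio was 13.3 and 14.2 in WT and 24.2 and 20.3 in KO. Of all 5 readers, Ythdf2 held 49.8% and 52.2% of the per-kilobase level in WT GV and 68.1% in both KO GV libraries. At GVBD it held 51.4% and 53.4% in WT and 54.8% and 55.5% in KO, without overlap, unlike its share among the Ythdf genes. With 2 libraries on each side these are descriptions, and no test was made on them. How often shares or ratios of other genes separated in this way was not counted.

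**Figure D3:**
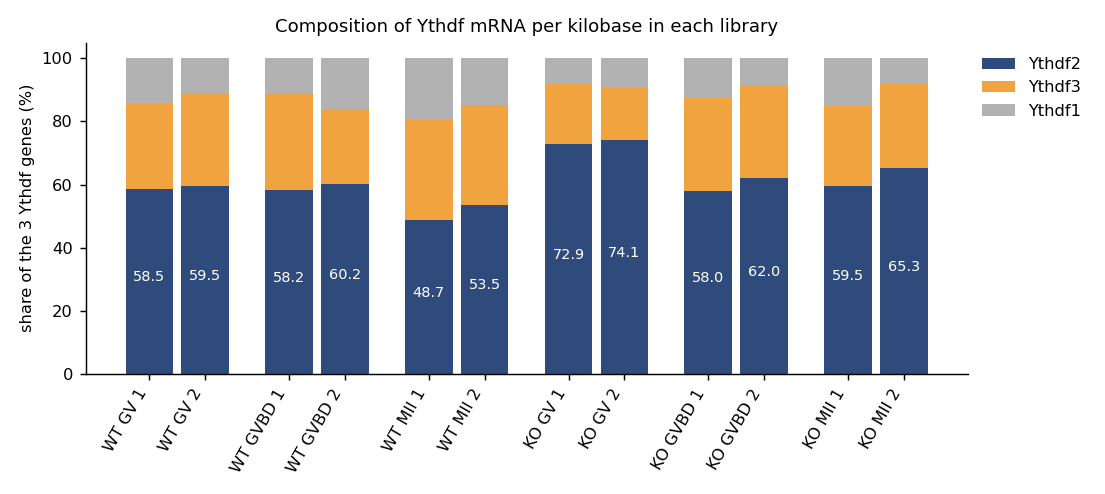
Share (percent) of Ythdf2 (blue, with its value), Ythdf3 (orange) and Ythdf1 (grey) in the summed per-kilobase level of the 3 Ythdf genes, 1 bar per library. Ythdf2 takes 72.9% and 74.1% in KO GV against 58.5% and 59.5% in WT GV, is higher in KO than in WT at MII, and overlaps between genotypes at GVBD.

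Maturation from GV to MII is accompanied by large-scale degradation of maternal mRNA, and the readers were set against that background. On the ERCC scale the median of all tested genes fell by 1.06 in WT and by 1.17 in KO (log2, MII against GV). Again 0 of 5 readers were called, in WT where 30.9% of 18816 genes were called and in KO where 3.28% of 18777 were. At an unadjusted p under 0.05 there was 1 reader in WT (Ythdf2), beside 39.1% of all genes, and 0 in KO, beside 24.6%. DESeq2 called 0 of 5 in WT and 0 of 5 in KO, against 29.3% and 16.3% of all genes. The blood markers summed to 43.7 and 5456 CPM at WT GV and to 30.8 and 60.1 at WT MII. In KO they summed to 3041 and 5242 CPM at GV and to 907 and 10.2 at MII. Their part in these changes was not tested.

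Ythdf2 was the reader that followed the median most closely, with a log2 change of -0.96 ± 0.49 in WT (adjusted p = 0.124, edgeR) and -0.93 ± 0.55 in KO (adjusted p = 0.319, edgeR). Its WT level was 2598 and 3141 ERCC-scaled counts at GV and 1713 and 1229 at MII, without overlap, as was the case in this direction for 58% of all tested genes. It was called without WT MII replicate 1 (log2 change -1.22, adjusted p = 0.0296, edgeR) and, in KO, without KO MII replicate 1 (-1.12, adjusted p = 0.00556, edgeR). In these fits 26.1% and 54.2% of all genes were called. Ythdf3 had a log2 change of -0.58 ± 0.49 in WT and -0.16 ± 0.60 in KO, and Ythdf1 of -0.26 ± 0.54 and -0.20 ± 0.72.

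The 2 YTHDC genes had log2 changes near 0 while the median fell. Ythdc1 had 1687 and 1438 ERCC-scaled counts at WT GV and 1933 and 1465 at WT MII, which overlap, and a log2 change of 0.12 ± 0.49, which lies 1.18 above the median of all genes. In KO its counts were 1426 and 1581 at GV and 2466 and 1359 at MII, and its log2 change was 0.35 ± 0.62, or 1.52 above the median. Ythdc2 had a log2 change of -0.040 ± 0.53 in WT and -0.085 ± 0.72 in KO, which is 1.02 and 1.09 above the median. Failing the test does not show that either was stable, since standard errors on this scale reached 0.72.

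Scaling by TMM removes most of the median shift, leaving -0.14 in each genotype, and turned the sign of several readers. Ythdc1 then rose by 1.06 ± 0.23 in WT and was called (adjusted p = 0.0198, edgeR), where 24.7% of all genes were called with this scaling, and had 1.41 ± 0.28 in KO (adjusted p = 0.0526, edgeR). In TMM-scaled CPM it had 41.4 and 35.5 at WT GV and 68.3 and 85.7 at WT MII. Ythdc2 had 0.87 ± 0.22 in WT (adjusted p = 0.0319, edgeR), under the fold minimum, and 1.05 ± 0.33 in KO (adjusted p = 0.0965, edgeR). Ythdf2 was at -0.018 ± 0.18 in WT and 0.29 ± 0.35 in KO. In mRNA relative to other mRNA, the order of change from the highest to the lowest was thus Ythdc1, Ythdc2, Ythdf1, Ythdf3 and Ythdf2 in WT, with differences between neighbours not tested.

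**Figure D4:**
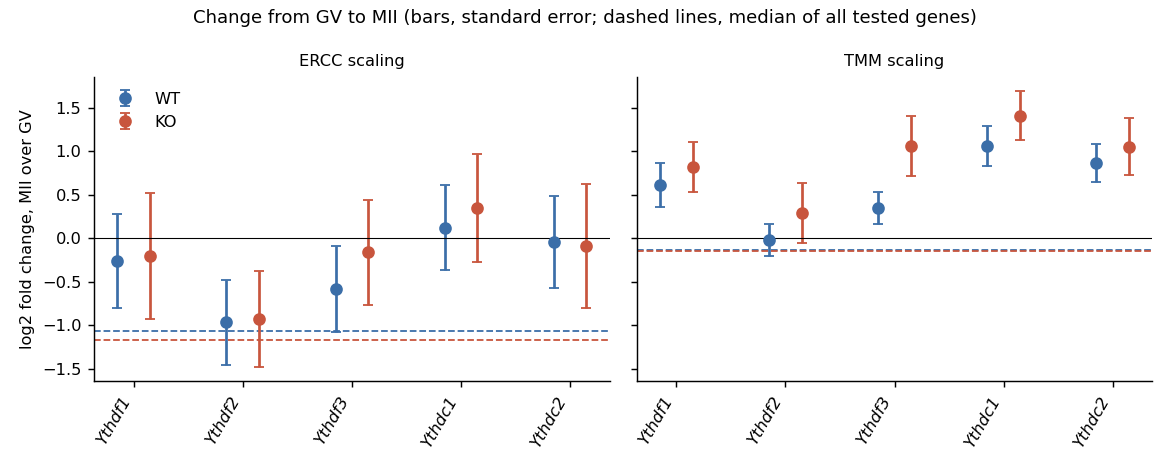
Log2 change from GV to MII of the 5 readers in WT (blue) and KO (red) with standard errors, under ERCC scaling on the left and TMM scaling on the right; dashed lines give the median of all tested genes. On the ERCC scale Ythdf2 lies near the medians of -1.06 and -1.17 and the other readers above them, and on the TMM scale Ythdc1 is highest, at 1.06 in WT and 1.41 in KO.

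The steps in between gave no call either. From GV to GVBD the log2 changes of the readers lay between 0.11 and 0.43 in WT and between -0.44 and 0.56 in KO, with 0 of 5 called in each, where 0.0511% and 0.22% of all genes were called. In KO, both GVBD libraries of Ythdf2 were below both GV libraries (-0.44 ± 0.27), as for 28.1% of all genes, and those of Ythdf3 above them (0.56 ± 0.31), as for 12.5%. The blood markers of KO summed to 3041 and 5242 CPM at GV and to 11.5 and 23.9 at GVBD, and their part was not tested. From GVBD to MII the changes ran from -1.36 (Ythdf2) to 0.0055 (Ythdc1) in WT and from -0.71 (Ythdf3) to 0.32 (Ythdc1) in KO, again with 0 of 5 called against 27.8% and 7.2% of all genes. With TMM scaling they ran from -0.32 to 1.07 in WT and from 0.30 to 1.17 in KO, so that the sign of most readers turned. DESeq2 called Ythdf2 from GVBD to MII in WT, where it called 28.4% of all genes. It called 0 of 5 readers from GVBD to MII in KO (12.6% of all genes) and from GV to GVBD in WT (1.96%) and KO (1.22%). From GVBD to MII the blood markers went from 3320 and 2967 CPM to 30.8 and 60.1 in WT. In KO they went from 11.5 and 23.9 CPM to 907 and 10.2, and their part was not tested.

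The difference between genotypes in the GV to MII change was tested as an interaction. It was called for 0 of 5 readers and 0% of 20807 genes, with 0 readers at an unadjusted p under 0.05 (5.75% of all genes), and DESeq2 also called 0 readers and 0.74% of all genes. Values lay between -0.045 for Ythdc2 and 0.42 ± 0.67 for Ythdf3. For Ythdf2 the interaction was 0.034 ± 0.61, which leaves room for changes in either direction.

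The genes that write or erase the mark, or work with the readers, were counted by the same rule. In KO against WT at each stage and over all stages, none of the 9 writers, of the 12 tested of 13 non-YTH readers, of the 13 decay partners of the YTHDF proteins, or of the 5 YTHDC1 partners was called. With TMM scaling 1 writer was called higher over all stages, where 2.73% of all genes were called. Among the 2 erasers Alkbh5 was called in each and Fto in none. Of the 3 YTHDC2 partners, 1 or 2 passed the filter and 0 were called. Over all stages the median log2 fold change was 0.29 for the writers and 0.34 for the decay partners, beside 0.29 for all genes and 0.38 for the 5 readers.

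From GV to MII in WT, 4 of 13 decay partners fell, a share close to the 30.9% of all genes called in either direction. They were Rida, the adaptor between YTHDF2 and RNase P/MRP, at -2.42 ± 0.50, and the CCR4-NOT subunits Cnot10 (-2.53 ± 0.60), Cnot11 (-1.46 ± 0.50) and the scaffold Cnot1 (-1.23 ± 0.50). With TMM scaling Rida (-1.48) and Cnot10 (-1.64) were still called, while Cnot1 (-0.33) and Cnot11 (-0.51) were not. Nxf1, the mRNA export receptor, fell by 1.83 on the log2 scale as 1 of 5 YTHDC1 partners, and Lrpprc, an RNA-binding protein of mitochondria, fell by 1.88 as 1 of 12 non-YTH readers; with TMM scaling neither reached the fold minimum. The 9 writers had 0 called, with a median of -0.42. The median was 0.082 for the YTHDC1 partners, -0.17 for the decay partners and -0.48 for the non-YTH readers, beside -1.06 for all genes. Lying above the median of all genes was thus not particular to Ythdc1 and Ythdc2. TMM scaling also called rises, for 2 decay partners, 2 YTHDC1 partners, 2 non-YTH readers and 1 writer. With this scaling 1593 of 18816 genes were called higher. It turned the medians to 0.77 for the decay partners and 0.49 for the writers. In KO, from GV to MII, 0 genes of these lists were called, where 3.28% of all genes were, and with TMM scaling 1 YTHDC1 partner was called lower, where 5.06% of all genes were called.

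The genes whose pattern across the 12 libraries was most like that of a reader were ranked by Pearson's r of log2 TMM-scaled CPM among 10830 genes. For Ythdf2 they included Dmc1, the meiotic recombinase (r = 0.942), and Car8 (r = 0.939). Ythdf3 was closest to Hif1a (r = 0.973), Fam117b and Ankrd28, and Ythdf1 to Slc4a7 (r = 0.930), Epb41l2 and Tub. Ythdc1 was closest to Pde8a (r = 0.952), Tcea1 and Rock1, and Ythdc2 to Zfp518a (r = 0.955), Cul4b and Med13. Between the readers themselves, Ythdc1 and Ythdc2 were the most alike pair on the TMM scale (r = 0.891), while the r of Ythdf2 with either was near 0 ( 0.0501 and -0.00807). These 12 points share stages, genotypes and library effects, and r is given as a description.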

How the data were processed

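The deposited values are raw counts per gene and library. Per the methods, the authors used Cutadapt for trimming, HISAT2 for alignment to GRCm38 (mm10) plus the ERCC sequences, SAMtools to keep unique reads, and StringTie. The submitters' processing notes name Cutadapt 1.9, HISAT2 2.0.4 and StringTie 1.3.4d, while a checklist with the paper names other versions of Cutadapt and HISAT2. The step that gave whole counts, the annotation release and the use of strand are not given in the sources used here. The labels describe a bulk preparation and the methods a low-input one.

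Counts were fitted with edgeR 4.0.16 (R 4.3.3, two-sided quasi-likelihood test), with library sizes set by summed ERCC counts and genes kept by filterByExpr on the compared groups. This test gives no standard error. The SE printed for its fits was derived as the absolute log2 fold change divided by the square root of the F statistic. Other scalings (TMM, median of ratios, or ERCC sequences reaching 10 counts everywhere), other filters (none, or 10 counts everywhere), DESeq2 1.42.0, a joint model of the 12 libraries, dropping the fold minimum, a block on the replicate number, and omission of single libraries were tried as alternatives. The code was tested on simulated data. PCR without molecular identifiers makes counts dependent, so depth does not bound sampling error. Named genes are the 5 readers, Alkbh5, members of the lists that were called, and for each reader the 3 most correlated genes (mean count 50 or more, pseudocount 1), of which 1 is not reported here. Members and lists were chosen with earlier results of these data known.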

Additional observations from a re-analysis of the deposited data

How the results depend on the processing

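Of 157 counts of called readers under alternatives, 141 stayed at 0 and 16 became 1. For KO against WT at GV it was 1 (Ythdf2) without a filter, with at least 10 counts in every library, with DESeq2, and over leave-one-out fits 0 to 1. Over all stages it was 1 (Ythdf2) in the same 3 settings and 0 to 1 when each library was left out. For MII against GVBD in WT it was 1 with DESeq2 (Ythdf2), for MII against GV in WT 1 with TMM and 1 with median-of-ratios scaling (Ythdc1), and 0 to 1 over leave-one-out fits of MII against GV in WT and in KO (Ythdf2). Counts over all genes moved more, from 19 at GV to between 0 and 666, from 494 at GVBD to between 5 and 953, from 141 at MII to between 0 and 542 and from 278 over all stages to between 63 and 1356. For MII against GV they went from 5821 in WT to between 2853 and 5821, and from 616 in KO to between 39 and 11075. The causes were not tested. At GV 2.27% of all genes were called without a filter, 1.25% with at least 10 counts in every library and 3.42% with DESeq2. Over all stages these shares were 3.57%, 6.41% and 6.16%. For MII against GVBD in WT DESeq2 called 28.4%. For MII against GV in WT TMM scaling called 24.7% and median-of-ratios scaling 25.4%.

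Same-numbered libraries did not deviate together in all comparisons (r from -0.22 to 0.21), so the numbers are not taken as pairs. With the replicate block 1 reader was called over all stages (Ythdf2, log2 1.04, adjusted p = 0.0290, edgeR), beside 3.06% of all genes. For MII against GVBD in WT it was again 1 (Ythdf2), beside 31.7% of all genes, and elsewhere 0. All genes called went from 19 to 0 at GV and from 278 to 673 over all stages. With crossed numbers, chosen after seeing the data, 1 reader (Ythdf2) was called at GV (218 genes in all), 0 at MII (0 genes) and 0 for MII against GVBD in KO (204 genes).

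Of 435 log2 values under alternatives (KO against WT and MII against GV; the steps through GVBD were not counted), 55 changed sign, none of them called in the setting reported. With TMM and median-of-ratios scaling in turn, these were Ythdf3 at GV (-0.057 and -0.058), Ythdf1 at GVBD (-0.045 and -0.041) and Ythdc1 at MII (-0.13 and -0.13) in KO against WT. For MII against GV in WT they were Ythdf1 (0.61 and 0.66), Ythdf3 (0.35 and 0.40), Ythdc2 (0.87 and 0.91) and, with median-of-ratios only, Ythdf2 (0.028). In KO they were Ythdf1 (0.82 and 0.84), Ythdf2 (0.29 and 0.33), Ythdf3 (1.06 and 1.09) and Ythdc2 (1.05 and 1.08). With the replicate block it was Ythdc1 over all stages (0.029). Leaving out each library in turn gave ranges across 0. At GV these were Ythdf3 -0.049 to 0.60, Ythdc1 -0.17 to 0.064 and Ythdc2 -0.38 to 0.26. At GVBD they were Ythdf1 -0.19 to 0.69, Ythdf2 -0.071 to 1.26, Ythdf3 -0.19 to 1.57, Ythdc1 -0.83 to 0.73 and Ythdc2 -0.80 to 0.61. At MII they were Ythdf1 -0.26 to 1.08, Ythdc1 -0.32 to 0.54 and Ythdc2 -0.46 to 0.38, and over all stages Ythdc1 -0.15 to 0.22 and Ythdc2 -0.24 to 0.11. For MII against GV in WT they were Ythdf1 -0.86 to 0.16, Ythdc1 -0.093 to 0.31 and Ythdc2 -0.49 to 0.30, and in KO Ythdf1 -0.94 to 0.29, Ythdf3 -0.45 to 0.20, Ythdc1 -0.15 to 0.71 and Ythdc2 -0.48 to 0.27. A fit that leaves 1 library in a group assumes that it varies like the others.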
